A study of Homo sapiens with 19 samples.

Results

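The sites described here are 5891 regions bound by ERRα in lapatinib-resistant LRSKBr3 breast cancer cells that were not bound in either control but were also bound in SKBr3 cells after growth factor treatment. Each is a peak of the LRSKBr3 list that overlapped no peak of untreated parental pSKBr3 cells and no peak of vehicle-treated SKBr3 cells, and that shared at least 1 bp with a peak of SKBr3 cells treated with EGF and/or heregulin (HRG). They make up 14.8% of the 39777 LRSKBr3 peaks and 43.6% of the 13526 LRSKBr3 peaks without a control peak, and are called shared gained sites below. The 7635 LRSKBr3 peaks found in neither the controls nor the growth factor lists are called resistant-only sites, and the 26251 with a pSKBr3 or vehicle peak are called control-shared sites. Because the sites were selected on the presence of a peak in these 5 lists, their presence or absence in those lists is given below as a description and not as a result.

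The study mapped ERRα by chromatin immunoprecipitation and sequencing (ChIP-seq) in 19 libraries, from which the authors deposited 8 peak lists, 1 per condition. SKBr3 and BT-474 cells, both human breast cancer lines with amplified ERBB2 (HER2), were kept for 24 h without serum and then given 100 μM EGF, 100 μM HRG or the PBS vehicle for 90 min (doses as labelled, not checked otherwise). pSKBr3 cells were left untreated, and LRSKBr3 cells, derived from SKBr3 by selection in the drug, were grown with 2 μM lapatinib, an inhibitor of the EGFR and HER2 kinases. The SKBr3, pSKBr3 and LRSKBr3 lists each pool 2 ChIP libraries against 1 input, and each BT-474 list rests on 1 ChIP library. The resistant line and the drug were present together in the LRSKBr3 libraries, and no starvation is given for the LRSKBr3 and pSKBr3 cells, so line, drug and serum cannot be told apart. The lists held from 22539 peaks (pSKBr3) to 41271 peaks (BT-474 on HRG), with 32183 on vehicle, 32567 on EGF and 37195 on HRG in SKBr3. With 1 pooled list per condition there is no spread between replicates, so no difference was tested, no P value is given, and the 95% Wilson intervals beside shares cover counting error only. How deeply the libraries were sequenced is unknown.

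ERRα is an orphan nuclear receptor that binds DNA at an extended half-site, the ERR response element (ERRE), and is known for its control of mitochondrial and oxidative metabolism genes. EGF binds EGFR, and HRG binds HER3 and HER4; both can signal through receptor pairs that include HER2. Among the best known nuclear targets of these receptors are the immediate early genes, which include FOS and JUN, whose protein products pair to form AP-1 and bind the word TGACTCA. LRSKBr3 cells have escaped a drug that blocks these same receptors. The paper compared their ERRα sites with those of growth factor-treated cells after seeing an overlap in the functions of the genes bound in each.

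Sequence windows of 201 bp around the peak centres are printed here from the plus strand of GRCh37 (hg19), so that the words counted below can be seen in place. Each line names the nearest protein-coding gene, which need not be a target, and the growth factor lists that held the site. Capitals mark the ERRE word TCAAGGTCA (reverse complement TGACCTTGA) and the AP-1 word TGACTCA (reverse complement TGAGTCA). The first 3 windows are the strongest intergenic sites by LRSKBr3 score that held both words.
SUMO3 (EGF only), chr21:46247896-46248096: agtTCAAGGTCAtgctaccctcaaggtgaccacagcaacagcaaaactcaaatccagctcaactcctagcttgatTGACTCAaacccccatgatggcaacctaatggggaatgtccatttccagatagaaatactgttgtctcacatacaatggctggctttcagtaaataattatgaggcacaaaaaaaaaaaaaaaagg
IGLL1 (HRG only), chr22:23846773-23846973: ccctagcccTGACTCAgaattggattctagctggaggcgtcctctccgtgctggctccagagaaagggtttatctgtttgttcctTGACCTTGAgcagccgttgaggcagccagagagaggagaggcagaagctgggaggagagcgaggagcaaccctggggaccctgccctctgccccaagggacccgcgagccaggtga
ACVR2A (EGF only), chr2:148110755-148110955: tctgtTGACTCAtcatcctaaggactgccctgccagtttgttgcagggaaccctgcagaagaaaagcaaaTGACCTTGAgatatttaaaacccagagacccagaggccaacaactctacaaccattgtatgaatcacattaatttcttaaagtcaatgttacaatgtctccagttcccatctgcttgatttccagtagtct
The next 3 windows are the strongest sites shared with both EGF and HRG that held the AP-1 word and no word of the Alu repeat.
LGR6 (EGF and HRG), chr1:202169557-202169757: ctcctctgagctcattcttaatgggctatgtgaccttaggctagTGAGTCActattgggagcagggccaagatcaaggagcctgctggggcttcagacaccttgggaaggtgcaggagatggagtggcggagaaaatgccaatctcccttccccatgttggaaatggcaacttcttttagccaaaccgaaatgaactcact
SHH (EGF and HRG), chr7:155744431-155744631: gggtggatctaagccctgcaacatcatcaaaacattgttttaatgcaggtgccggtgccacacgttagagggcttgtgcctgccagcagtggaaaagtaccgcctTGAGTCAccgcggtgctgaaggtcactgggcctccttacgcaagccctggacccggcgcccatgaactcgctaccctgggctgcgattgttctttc
PSMG2 (EGF and HRG), chr18:12750430-12750630: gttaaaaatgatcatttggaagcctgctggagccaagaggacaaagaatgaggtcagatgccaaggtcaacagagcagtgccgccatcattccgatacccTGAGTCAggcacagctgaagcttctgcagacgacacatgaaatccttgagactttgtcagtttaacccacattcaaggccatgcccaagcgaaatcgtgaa
A further 3 windows are the strongest sites shared with EGF only that held the ERRE word.
FHL2 (EGF only), chr2:105989790-105989990: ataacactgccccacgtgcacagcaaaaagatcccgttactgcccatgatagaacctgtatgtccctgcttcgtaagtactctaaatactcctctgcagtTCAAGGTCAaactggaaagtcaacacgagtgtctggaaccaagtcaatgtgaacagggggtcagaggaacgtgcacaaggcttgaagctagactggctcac
NIM1K (EGF only), chr5:43227952-43228152: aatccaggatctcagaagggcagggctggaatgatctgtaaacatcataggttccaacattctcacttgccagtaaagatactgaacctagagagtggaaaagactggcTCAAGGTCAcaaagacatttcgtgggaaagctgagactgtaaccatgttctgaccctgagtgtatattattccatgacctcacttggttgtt
DHX35 (EGF only), chr20:38371403-38371603: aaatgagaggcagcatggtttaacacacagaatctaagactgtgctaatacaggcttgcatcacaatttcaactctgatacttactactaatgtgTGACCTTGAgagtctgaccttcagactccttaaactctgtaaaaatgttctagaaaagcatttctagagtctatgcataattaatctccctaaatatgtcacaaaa
The last pair shows promoter sites shared with HRG only, the strongest with the GC-box word GGGCGG (reverse complement CCGCCC), which is capitalised there. Neither held an ERRE or AP-1 word.
FLII (HRG only), chr17:18161183-18161383: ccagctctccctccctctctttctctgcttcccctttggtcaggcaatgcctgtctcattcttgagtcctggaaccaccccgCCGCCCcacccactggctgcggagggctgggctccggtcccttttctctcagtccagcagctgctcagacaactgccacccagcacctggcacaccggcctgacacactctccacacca
ATXN2L (HRG only), chr16:28833840-28834040: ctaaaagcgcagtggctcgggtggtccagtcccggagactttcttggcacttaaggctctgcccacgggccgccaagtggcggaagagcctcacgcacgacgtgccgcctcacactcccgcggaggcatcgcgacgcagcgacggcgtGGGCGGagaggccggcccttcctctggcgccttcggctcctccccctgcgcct

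The SUMO3, IGLL1 and ACVR2A windows show the ERRE and AP-1 words on the same stretch of DNA but at different distances from one another. Their order differs along the plus strand. Read in the direction of the ERRE word TCAAGGTCA, the AP-1 word came after it in each of these windows. The LGR6 site (chr1:202168932-202170381), in an intron of a receptor for R-spondins, carried a single AP-1 word. Its score stood at percentile 72.1 of the LRSKBr3 list. All 3 windows shared with EGF and HRG also held a half-site AAGGTCA (or its reverse complement TGACCTT), which is contained in the ERRE word but was not capitalised.

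Most shared gained sites were on HRG only. Of the 5891 sites, 3400 (57.7%) overlapped an HRG peak but no EGF peak, 1611 (27.3%) overlapped both and 880 (14.9%) overlapped an EGF peak but no HRG peak. The HRG list was the larger of the 2 growth factor lists, and the part of list size in these numbers was not tested. Overlaps were broad. The median overlap with the growth factor peak was 1134 bp, and 96.7% of the sites were covered over at least 50% of their width. The centres were a median of 86 bp (EGF) and 120 bp (HRG) apart. At the edge of the rule, the smallest overlap was 3 bp and 34 sites overlapped by less than 100 bp, while 351 resistant-only sites lay less than 500 bp from a growth factor peak. On the control side, 652 sites (11.1%) had a control peak less than 1 kb away, and the median distance to the nearest control peak was 9.96 kb. For 223 sites (3.79%) every overlapping growth factor peak itself reached a control peak next to the site.

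Peaks were selected on the authors' score, −10 log10 of the MACS P value, with a lowest score of 50 in every list. The vehicle, EGF and HRG lists of SKBr3 open with a comment naming another program, FindPeaks, but their peaks carry MACS names and were read as MACS peaks. By this score the shared gained sites were weak. Their median score was 96.7 and stood at percentile 31.9 of the LRSKBr3 list, against percentile 20.4 for resistant-only and 65.7 for control-shared sites. In all, 77.8% were below percentile 50, 114 (1.94%) were above percentile 75 and 4 were above percentile 90. Sites shared with both growth factors had a median percentile of 35.2, those on HRG only 32.1 and those on EGF only 25.1. The scores were also low in the growth factor lists, with medians at percentile 31.3 of the EGF list (2491 sites) and 41.8 of the HRG list (5011 sites). Between the score in LRSKBr3 cells and the score on growth factor, Spearman's rho across these sites was 0.06 for EGF and 0.16 for HRG. The rule kept mostly weak peaks and every score is cut at 50. The selection alone can therefore give a low rho, and no conclusion is drawn from it. The sites come from 1 pair of pooled lists for each rho and are not independent replicates. The median width was 1294 bp, and mean GC content of the 201-bp windows was 53.3% on HRG only, 48.8% on both and 43.7% on EGF only.

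The AP-1 word was more common at the shared gained sites than at the resistant-only sites. It lay within 100 bp of the centre in 528 of 5891 shared gained sites (8.96%, interval 8.26–9.72%), against 248 of 7635 resistant-only sites (3.25%, interval 2.87–3.67%), 5.69% of control-shared sites and 5.71% of all LRSKBr3 peaks. In windows 2 kb to each side, the word was found at 3.08% around shared gained and 3.47% around resistant-only sites, so the resistant-only sites carried it no more often than their flanks. The sites on both EGF and HRG carried the word most often (15.5%, interval 13.8–17.3%), followed by EGF only (11.6%, interval 9.64–13.9%) and HRG only (5.21%, interval 4.51–6.0%). The intervals of the first pair overlap narrowly, while that of HRG only lies below both. The plot of word shares by class shows this order.

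**Figure D1:**
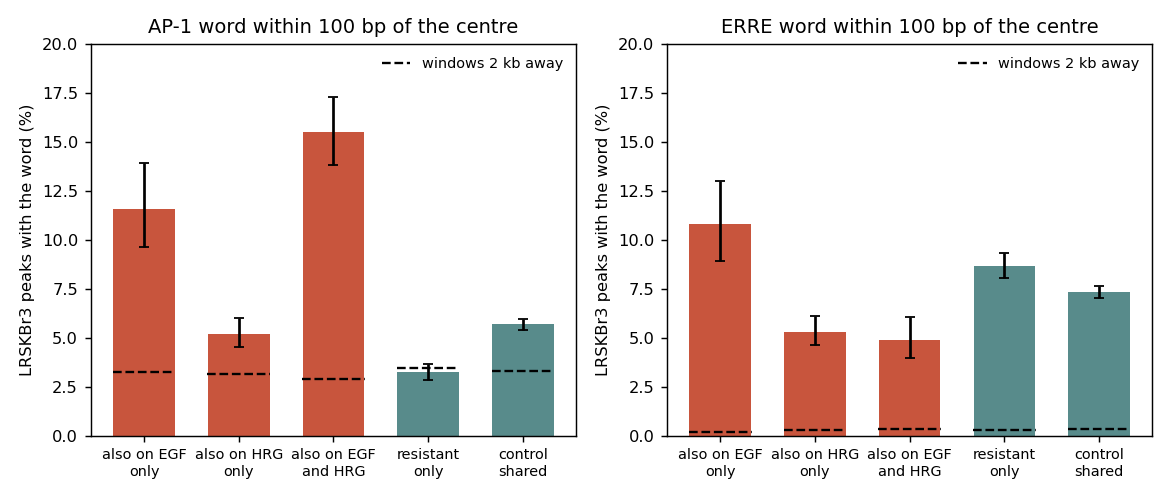
Share of LRSKBr3 peaks (%) with the AP-1 word (left) or the ERRE word (right) within 100 bp of the centre, by class of peak, with bars for the share, error bars for the 95% Wilson interval and dashed lines for windows 2 kb to each side. The AP-1 share reached 15.5% at sites also on EGF and HRG and 3.25% at resistant-only sites, whereas the ERRE share was 4.90% and 8.66% in the same classes.

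The AP-1 share was also higher at shared gained sites within each group of score, position and base composition, though not always beyond counting error. Below score percentile 25 the word was found in 10.8% of shared gained and 3.55% of resistant-only sites. Between percentiles 25 and 50 the shares were 8.58% and 2.61%. Between percentiles 50 and 75 they were 6.30% and 3.63%, with intervals that overlap (5.05–7.82% and 2.43–5.39%), and above percentile 75 they were 7.89% (interval 4.21–14.3%) and 1.92% (interval 0.340–10.1%), again overlapping. More than 1 kb from a start they were 9.77% and 3.53%, and within 1 kb 4.27% (interval 3.12–5.83%) and 1.60%. In the flanks of these promoter sites the shares were 3.29% and 3.20%. The flank value lies within the interval of the shared gained promoter sites. In the GC-poorest group of peaks (below 46.3% GC) they were 10.1% and 4.0%, and in the GC-richest group (above 54.7%) 6.74% and 1.81%.

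Over all sites, the ERRE word was less common at the shared gained than at the resistant-only sites. It was found in 355 shared gained sites (6.03%, interval 5.45–6.66%), in 661 resistant-only sites (8.66%, interval 8.05–9.31%) and in 7.40% of all LRSKBr3 peaks, against 0.280% in the flanks of the shared gained sites. EGF-only sites held the ERRE word at 10.8% (interval 8.91–13%), HRG-only sites at 5.32% (interval 4.62–6.13%) and sites on both at 4.90% (interval 3.95–6.07%, against 0.341% in their flanks), the intervals of the last 2 overlapping. The half-site AAGGTCA, which every ERRE word contains, was found in 24.0% of shared gained, 27.5% of resistant-only and 25.5% of all LRSKBr3 peaks. No ERRE word was found at the 114 shared gained sites above score percentile 75 (0 of 114, which allows a share of up to 2.63% when 3 sites are taken as the limit of a count of 0, and 3.26% by the Wilson bound). Resistant-only sites above that percentile, of which there were 52, held none either (Wilson upper bound 6.88%). Control-shared sites above it held the word at 5.98% (585 of 9779). The ERRE difference was not present in every group of peaks, and the classes differ in score. Below percentile 25 the shares were 7.08% (interval 6.10–8.20%) at shared gained and 9.97% (interval 9.13–10.9%) at resistant-only sites. The intervals overlap between percentiles 25 and 50 (5.83%, interval 4.95–6.87%, and 7.23%, interval 6.27–8.32%) and between percentiles 50 and 75 (4.95% and 5.53%). More than 1 kb from a start the shares were 6.71% and 9.85%, while within 1 kb the order was the other way, with overlapping intervals (2.08%, interval 1.32–3.26%, and 1.78%, interval 1.15–2.73%). By GC content the shares were 8.94% and 12.0% in the poorest group, 6.17% and 8.02% in the middle group with overlapping intervals (5.19–7.32% and 7.00–9.17%), and 2.71% and 3.23% in the richest group, again with overlapping intervals (2.06–3.54% and 2.51–4.14%).

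The ERRE word was concentrated at the centre of the peak and the AP-1 word less so. Per 100 bp of sequence, the share of EGF-only sites with an ERRE word fell from 8.02% within 25 bp of the centre to 0.865% at 201 to 246 bp. For the AP-1 word at sites on both growth factors the same share was 9.01% within 25 bp and still 4.59% at 201 to 246 bp. At resistant-only sites the AP-1 share stood between 1.57% and 1.81% per 100 bp at every distance and showed no peak at the centre. The plot of words along the peak shows these profiles.

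**Figure D2:**
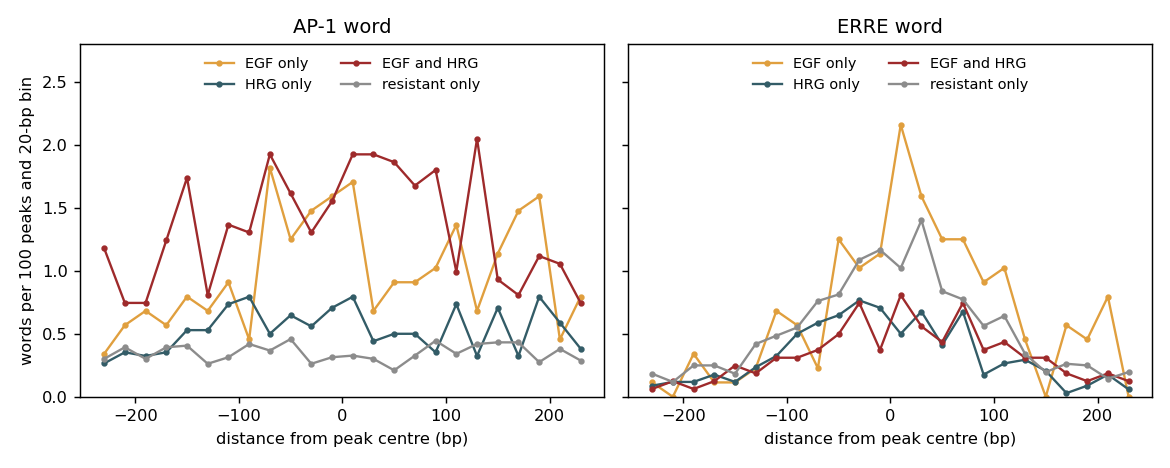
AP-1 words (left) and ERRE words (right) per 100 peaks in bins of 20 bp (vertical axis) against the distance from the peak centre in bp (horizontal axis), for shared gained sites on EGF only, HRG only and both, and for resistant-only sites. The ERRE profiles rise at the centre in each class, to 2.159 words for EGF-only sites, while the AP-1 profile of resistant-only sites is flat.

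Both words were found together at 31 shared gained sites (0.526%), against 0.377% of all LRSKBr3 peaks. Of these, 12 were on EGF only (1.36% of that class), 9 on HRG only (0.265%) and 10 on both (0.621%). The HRG-only share was thus below that of all LRSKBr3 peaks. The words were a median of 36 bp apart, with a range of 5 to 162 bp, and 10 of the 31 pairs lay within 20 bp. Besides the 3 intergenic sites printed above, other sites with both words lay near GLRX3, which encodes a monothiol glutaredoxin, near PTGER4, a prostaglandin E2 receptor, in introns of DYSF, MARCHF4 and MBD3L1, and near XPO1, the exportin that carries many proteins out of the nucleus. With the printed sites included, their LRSKBr3 score percentiles ran from 61.5 near SUMO3 down to 26.3 near XPO1. The MBD3L1 site was a promoter site, 53 bp from a start.

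Of the other words searched, on both strands, the GC-box, NF-κB and CCAAT words had intervals that did not overlap between shared gained and resistant-only sites. The GC-box word GGGCGG was found in 11.0% (interval 10.2–11.8%, flanks 6.82%) and 8.93% (interval 8.31–9.59%, flanks 4.98%). The NF-κB word was found in 13.5% (interval 12.6–14.4%, flanks 9.49%) and 11.4% (interval 10.7–12.1%, flanks 8.63%). The CCAAT word was less common at shared gained sites, with 21.6% (interval 20.6–22.7%) against 24.7% (interval 23.8–25.7%), and about as common in the flanks (22.7% and 24.0%). For the rest the intervals overlap. The TFAP2 word GCCNNNGGC was found in 11.4% and 10.1%. The TEAD word GGAATG was found in 15.8% and 17.1%, and the forkhead word TGTTTAC in 3.14% and 3.56%. The cyclic AMP response element TGACGTCA, which differs from the AP-1 word by 1 inserted base, was rare in both classes, at 0.306% and 0.249%. The antioxidant response element word TGACNNNGC, bound by NRF2 and also matched by an AP-1 word that GC follows, was found in 10.6% of shared gained sites (interval 9.88–11.5%) and in 9.63% of resistant-only sites (interval 8.99–10.3%).

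Words of the Alu repeat, the most abundant short interspersed repeat of the human genome, were also more frequent at the shared gained sites. In a count made after the sequences had been seen, at least 1 of 3 words from the Alu consensus lay within 250 bp of the centre in 895 sites (15.2%, interval 14.3–16.1%), against 7.64% of resistant-only and 6.33% of control-shared sites. The share was 19.0% on HRG only, 13.7% on both and 3.07% on EGF only, and it was 31% among the 100 strongest shared gained sites. Without all peaks that held such a word, the AP-1 share was 9.09% at shared gained and 3.16% at resistant-only sites, and the ERRE share 5.96% and 8.68%.

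Seen from the growth factor side, the AP-1 word was less common at the induced sites that LRSKBr3 cells held than at those they did not. Growth factor-induced peaks are here EGF or HRG peaks without an overlapping vehicle or pSKBr3 peak. Of induced EGF peaks that overlapped an HRG peak, 39.5% had an LRSKBr3 peak, against 16.6% of induced EGF peaks without an HRG peak and 29.4% of induced HRG peaks without an EGF peak. Among the EGF peaks that overlapped an HRG peak, the AP-1 word was found in 288 of 1596 (18.0%) of those with an LRSKBr3 peak and in 800 of 2443 (32.7%, interval 30.9–34.6%) of those without. Among EGF-only peaks the shares were 13.7% and 22.5%, and among HRG-only peaks 6.25% and 9.96%. The ERRE word had the opposite direction, with 11.4% against 4.22% of EGF-only peaks and 5.41% against 2.26% of HRG-only peaks.

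**Figure D3:**
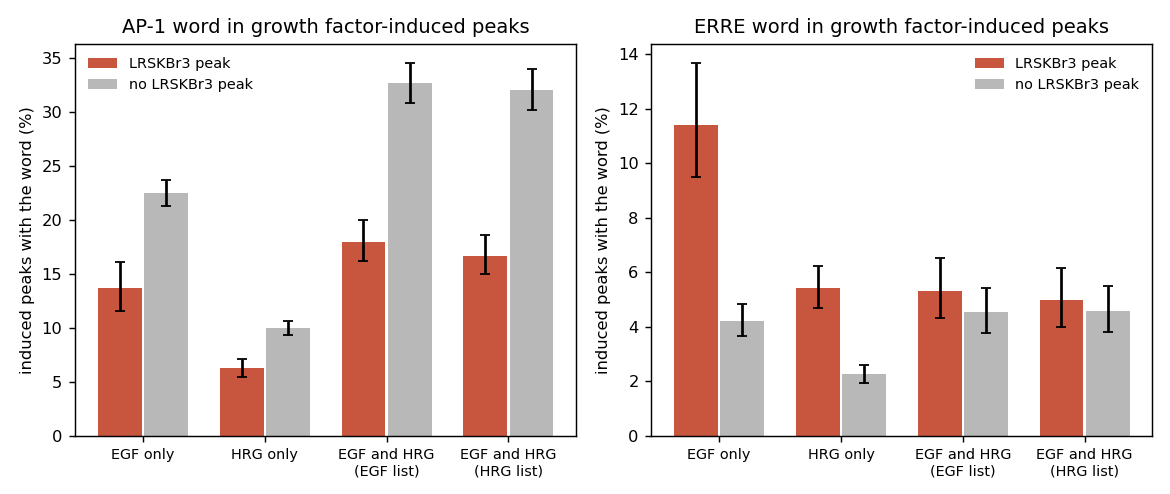
Share of growth factor-induced peaks (%) with the AP-1 word (left) or ERRE word (right), for peaks with and without an overlapping LRSKBr3 peak, by class of induced peak and list, with 95% Wilson intervals. In each class the AP-1 share was lower where LRSKBr3 cells had a peak (18.0% against 32.7% for peaks on both, EGF list), and the ERRE share was higher for EGF-only (11.4% against 4.22%) and HRG-only peaks (5.41% against 2.26%).

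The same numbers can be read as how often an induced peak was held. Of HRG-only peaks with an ERRE word, 180 of 360 (interval 44.9–55.1%) had an LRSKBr3 peak, against 28.8% of those without the word. Of EGF-only peaks with an ERRE word, 35.1% (101 of 288, interval 29.8–40.7%) had one, against 15.6% without the word. Of peaks on both with an AP-1 word, 26.5% (EGF list, 288 of 1088) had one, against 44.3% without the word. Peaks on both with and without an ERRE word gave overlapping intervals, at 43.4% (interval 36.6–50.4%) and 39.3% (interval 37.8–40.9%). Among the weakest peaks, those below percentile 25 of the HRG list, HRG-only peaks with an LRSKBr3 peak held the AP-1 word at 5.88% and those without at 9.14%. In the same group the ERRE shares were 8.0% and 2.46%. The AP-1 order was the same in each score group of each class, with overlapping intervals in some, but the ERRE order was not. Above percentile 75 the ERRE shares of HRG-only peaks were 0.813% (1 of 123) and 1.69% (1 of 59), and those of peaks on both in the EGF list were 5.88% (interval 3.13–10.8%) and 8.24% (interval 5.50–12.2%). Peaks on both in the HRG list gave 3.19% and 4.26% between percentiles 50 and 75. HRG-only peaks with and without an LRSKBr3 peak also differed in mean GC content (53.6% and 48.5%) and in median HRG score percentile (33.7 and 22.5), and the part of these in the differences was not tested beyond the score groups. The pooled libraries of 1 growth factor condition stand behind each list, and no test of these differences was made.

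Shared gained sites lay closer to genes when they were on HRG only. A start of a protein-coding transcript lay within 1 kb of the centre (a promoter site) at 866 sites (14.7%, interval 13.8–15.6%), against 14.7% of resistant-only sites and 18.4% of all LRSKBr3 peaks. The share was 20.1% (interval 18.8–21.5%) on HRG only, 8.07% (interval 6.84–9.50%) on both and 5.80% (interval 4.44–7.54%) on EGF only. The median distance to a start was 9.60 kb on HRG only, 19.4 kb on both and 30.5 kb on EGF only, and 22.7% of EGF-only sites were over 100 kb from any start. Introns held 49.9% of the centres and intergenic sequence 43.2%. Among the autosomes and X, chromosome 19 gave the largest share of its LRSKBr3 peaks as shared gained sites (24.7%). Most of these were on HRG only, which were 19.3% of all LRSKBr3 peaks there. Chromosome 13 gave the smallest share (6.43%), and it also had the smallest share of resistant-only sites (8.90%). Chromosome 19 also had the highest mean GC content of LRSKBr3 peaks, 56.3%, and the part of base composition was not tested.

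The lists of BT-474 cells did not enter the rule. Shared gained sites as a whole had an ERRα peak there more often than resistant-only sites, but those on HRG only did not. An overlapping peak was present in at least 1 BT-474 list at 1787 shared gained sites (30.3%, interval 29.2–31.5%). The share was 22.9% (interval 22–23.9%) at resistant-only sites, 60.7% at control-shared sites and 49.0% at all LRSKBr3 peaks. By treatment, 25.4% of the shared gained sites overlapped a BT-474 HRG peak, 21.4% a vehicle peak and 13.3% an EGF peak. The BT-474 EGF list was the shortest of the 3 with 26832 peaks, and the HRG list the longest, so the order of the treatments follows that of list size. Sites on EGF only (42.7%) and on both (40.8%) had a BT-474 peak more often than sites on HRG only (22.2%, interval 20.8–23.6%). The HRG-only share was no higher than that of resistant-only sites, with overlapping intervals. A BT-474 peak on EGF and/or HRG with none on vehicle was present at 525 shared gained sites (8.91%, interval 8.21–9.67%). The share was 6.47% at resistant-only sites, 7.93% at control-shared sites and 7.79% at all LRSKBr3 peaks. By growth factor class it was 14.3% on EGF only, 13.0% on both and 5.59% on HRG only. A BT-474 peak on vehicle was present at 1262 shared gained sites.

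**Figure D4:**
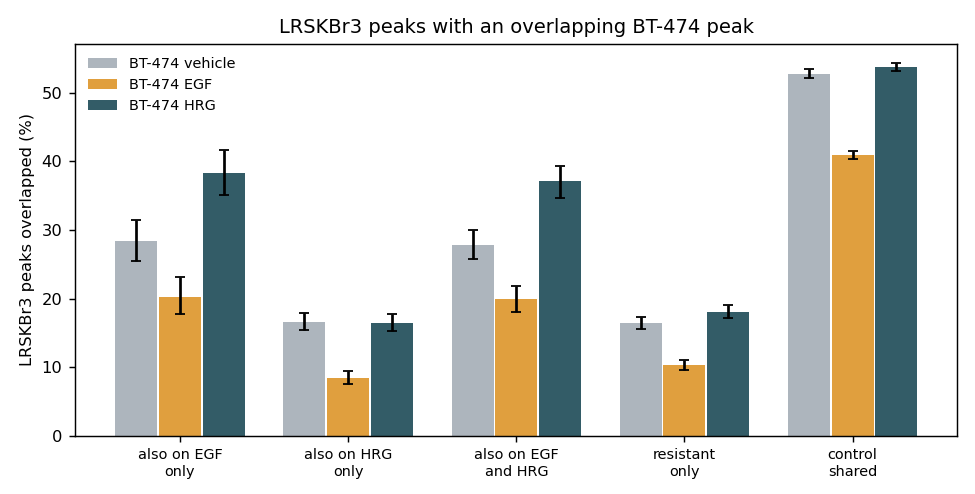
Share of LRSKBr3 peaks (%) that overlapped a BT-474 peak on vehicle, EGF or HRG, by class of LRSKBr3 peak, with 95% Wilson intervals. Sites also on EGF only reached 38.3% and sites on both 37.1% in the BT-474 HRG list, against 16.5% for HRG-only and 18.1% for resistant-only sites.

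Within score groups the BT-474 shares were 27.7% and 21.6% for shared gained and resistant-only sites below percentile 25, and 29.6% and 23.4% between percentiles 25 and 50. Above percentile 75 the few sites gave 39.5% (45 of 114) and 44.2% (23 of 52) with wide, overlapping intervals (31–48.6% and 31.6–57.7%). Shared gained sites with a BT-474 peak held the ERRE word at 8.56% (interval 7.35–9.95%) and those without at 4.92% (interval 4.30–5.63%). For the AP-1 word the shares were 9.12% (interval 7.87–10.5%) and 8.89% (interval 8.06–9.80%) over all shared gained sites. That order was not found within any of the growth factor classes, where the AP-1 shares with and without a BT-474 peak were 12.8% and 17.3% on both (intervals 10.4–15.6% and 15–19.8%), 10.6% and 12.3% on EGF only, and 5.17% and 5.22% on HRG only, with overlapping intervals in each.

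Shared gained sites reached many genes but seldom alone. Of 19794 protein-coding genes, 3995 (20.2%) had such a site within 20 kb of a start, against 22.8% with a resistant-only site and 56.4% with a control-shared site. Only 957 genes had a shared gained site and no control-shared site in range. A single site was in range of 3071 genes, and 13 genes had 5 or more. The genes with 6 were PISD, which encodes the enzyme that makes phosphatidylethanolamine in mitochondria, FHL2, a LIM-domain coregulator, MARK4, a microtubule-affinity regulating kinase, and DNAJB1, an HSP40 co-chaperone. At FHL2 5 of the 6 sites were on both EGF and HRG and there was no HRG-only site, while at MARK4 all 6 were on HRG only. At CS, which encodes citrate synthase, and its neighbour COQ10A, which encodes a coenzyme Q-binding protein, the same 5 sites were counted for both genes. Groups of sites less than 12.5 kb apart held 22.3% of the shared gained sites. The largest groups held 5 sites each, as at BIN1 (chr2:127821819-127848276, all on HRG only) and at the neighbouring genes AFMID, BIRC5 and TK1 (chr17:76179591-76207973, all on HRG only).

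Of the 15 gene lists, the immediate early genes had the highest share with a shared gained site, although its interval overlaps those of several other lists. Among 30 immediate early genes other than AP-1 factors, 18 (60.0%, interval 42.3–75.4%) had one within 20 kb, against 20.2% of all genes, and 8 (26.7%) had a resistant-only site. These genes are also well supplied with ERRα sites in general, since 27 of the 30 (90.0%) had some LRSKBr3 peak in range against 67.2% of all genes. Of the 18 genes, 12 had an HRG-only site and 7 a site on both, and none had an EGF-only site. Over all genes these shares were 14.9% for HRG only, 5.24% for both and 2.05% for EGF only. With so low a share over all genes, the absence of EGF-only sites at 30 genes says little. The strongest was near SRF (chr6:43149166-43150544, LRSKBr3 percentile 63.1), the serum response factor that drives many genes of this class. IER3 had 3 sites, and KLF6, a zinc finger factor, had a site on both 1133 bp from its start. Promoter sites included NR4A3 (114 bp), a nuclear receptor, and ZFP36L1 (472 bp), an mRNA decay factor. The NR4A3 site was weak on HRG (percentile 3.12).

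The list of AP-1 and related bZIP factors gave 8 of 20 genes (40.0%, interval 21.9–61.3%), against 20.2% of all genes and 5 with a resistant-only site. The 8 include MAFF and MAFG, which are related factors and not FOS or JUN genes. Some LRSKBr3 peak was in range of 17 of the 20 (85.0%, against 67.2% of all genes), and all 8 also had a control-shared site. JUND had the strongest (chr19:18389126-18391652, 1350 bp from the start), at percentile 83.6 in LRSKBr3 cells, 27.1 on EGF and 56.7 on HRG. The FOS site (chr14:75743446-75744808) lay 1402 bp from the start at percentile 23.6 in LRSKBr3 cells, with a score of 145 on HRG. FOSB had a site at percentile 44.1 in LRSKBr3 cells and 87.3 on HRG. FOSL2 had 2 sites, the nearer 17 bp from a start, and MAFF, a small MAF protein, had 3.

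Of 15 genes of the ERBB receptors and their ligands, 5 (33.3%, interval 15.2–58.3%) had a shared gained site, an interval that includes the 20.2% of all genes. The ERBB3 site (chr12:56487452-56488685) lay 453 bp from a start of the HER3 gene, at percentile 59.0 in LRSKBr3 cells and 43.6 on HRG, with no EGF peak. BTC, the gene of betacellulin, had a site 270 bp from its start, and HBEGF, NRG3 and EREG, all genes of EGF-family ligands, had 1 each. Of 54 other receptor tyrosine kinase genes, 11 (20.4%, interval 11.8–32.9%) had a site, close to the share of all genes. The strongest were near IGF1R, the type 1 insulin-like growth factor receptor (chr15:99439608-99441338, percentile 67.9), TYRO3, MST1R, PDGFRB and FGFR3.

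Downstream of the receptors, 10 of 31 genes of the PI3K, AKT and mTOR core (32.3%, interval 18.6–49.9%) had a shared gained site, an interval that includes the 20.2% of all genes. IRS1, the insulin receptor substrate, had a site on both EGF and HRG at percentile 70.7 (chr2:227654189-227657742). PIK3CD, a catalytic PI3K subunit, had 3 sites, and RICTOR, a subunit of mTORC2, had a promoter site 320 bp from its start. The feedback inhibitors of growth factor signalling gave 11 of 34 genes (32.4%, interval 19.1–49.2%), and 16 (47.1%) had a resistant-only site. The interval includes both this share and the 20.2% of all genes. SOCS2, SOCS5 and SOCS3, suppressors of cytokine signalling, and LRIG3 and CBLC were among them. The list also counts GAB1, a docking adaptor that passes receptor signals on rather than inhibiting them. The SOCS2 site lay 161 bp from the start at percentile 71.5 in LRSKBr3 cells and 70.1 on HRG.

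Antioxidant genes had shared gained and resistant-only sites equally often. Of 61 genes of glutathione metabolism and antioxidant defence, 26 (42.6%, interval 31–55.1%) had a shared gained site and 26 a resistant-only site, against 20.2% and 22.8% of all genes, and 51 (83.6%) had some LRSKBr3 peak, against 67.2% of all genes. Of the 61 genes, 19 had an HRG-only site, 4 an EGF-only site and 4 a site on both. The shares over all genes were 14.9%, 2.05% and 5.24% in the same order, so HRG-only sites were the most frequent there too. The strongest were SRXN1, which encodes sulfiredoxin (percentile 54.9), PRDX3, the mitochondrial peroxiredoxin, with a promoter site 114 bp from its start (percentile 54.8), GGT1, a γ-glutamyltransferase, MGST2 and CHAC2. Among the genes the study singled out, TFF1 and SOD3 had a resistant-only peak in range and no shared gained site. GSR, which encodes glutathione reductase, had 1 resistant-only and 3 control-shared peaks, and GPX1, a glutathione peroxidase gene, had 1 control-shared peak. Glutamine and cysteine metabolism gave 10 of 37 genes (27.0%, interval 15.4–43%, which includes the share of all genes). Near CTPS1, a CTP synthase that takes its nitrogen from glutamine, the site stood at percentile 78.7 in LRSKBr3 cells, 65.9 on EGF and 82.9 on HRG. SLC1A5, the glutamine transporter ASCT2, had 4 sites in range.

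Oxidative phosphorylation genes, the best known targets of ERRα, had few. Of 86 such genes, 10 (11.6%, interval 6.44–20.1%) had a shared gained site, against 20.2% of all genes, while 81 (94.2%) had a control-shared site, and none of the 10 had a shared gained site without a control-shared one. Those with the strongest sites were ATP5PD, UQCRC1, UQCR11, NDUFA3 and NDUFA7, none of them in a promoter. Integrins and laminins gave 14 of 38 genes (36.8%, interval 23.4–52.7%), led by ITGA5, ITGB2, LAMC3, LAMB2 and ITGA10, against 21.1% with a resistant-only site, and the shares of all genes were 20.2% and 22.8%. The next 4 lists were close to the share of all genes. Keratins and desmosomal genes gave 7 of 32 (21.9%), matrix proteases and their inhibitors 8 of 38 (21.1%), regulators of mesenchymal transition 4 of 21 (19.0%), and luminal and oestrogen-responsive genes 5 of 28 (17.9%). Their shares with a resistant-only site were higher, at 40.6%, 28.9%, 23.8% and 35.7% in the same order. Of 14 genes of the ERR family and its coregulators, 4 (28.6%, interval 11.7–54.6%) had a shared gained site, an interval that includes the 20.2% of all genes. A resistant-only site was in range of 6 (42.9%). Among the 4 was ESRRA, which encodes ERRα itself, with a site 8804 bp from a start. The same site lay closer to a start of PRDX5 (4906 bp), and ESRRA also had a control-shared site in range. The lists overlap in loci, and a single site can count for neighbouring genes such as GSTO1 and GSTO2.

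**Figure D5:**
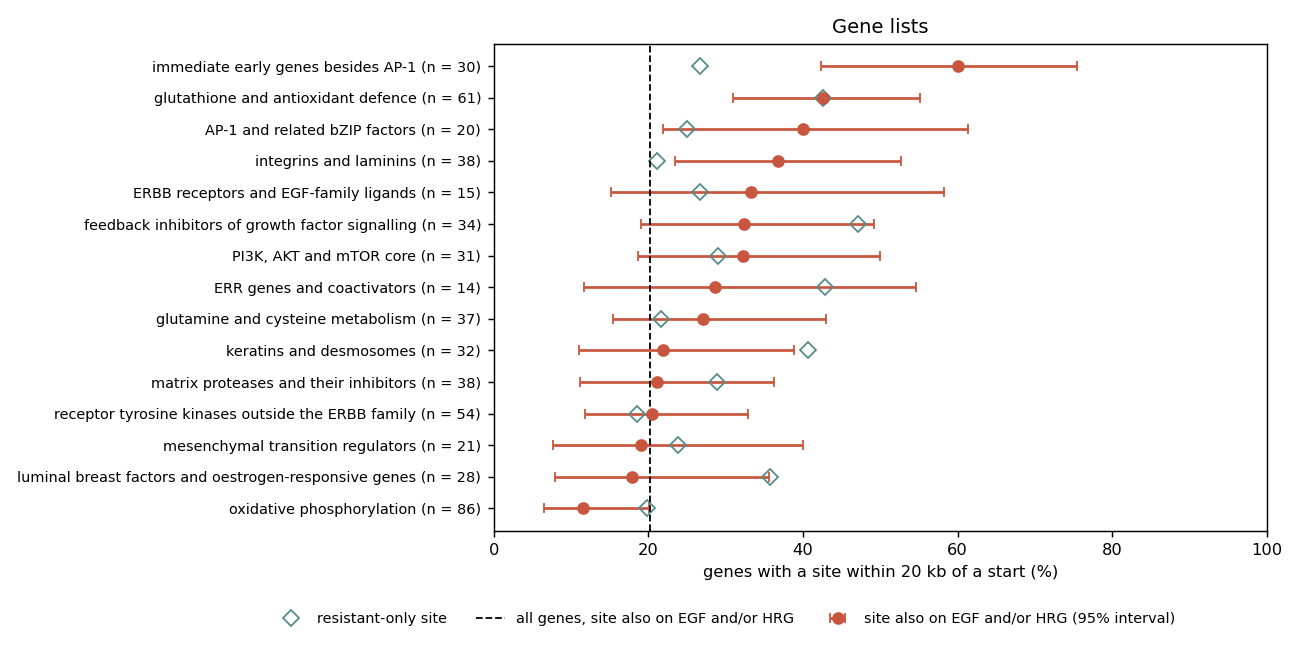
Share of the genes of each list (%) with a shared gained site (filled circles, 95% Wilson interval) or a resistant-only site (open diamonds) within 20 kb of a start, with the share of all protein-coding genes (20.2%) as a dashed line. Immediate early genes stand at 60.0% and oxidative phosphorylation genes at 11.6%, and antioxidant genes have the same share, 42.6%, in both classes.

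The strongest shared gained sites by LRSKBr3 score were wide. Like the strongest resistant-only sites, they lacked the ERRE word, which 5.98% of control-shared sites above score percentile 75 held. The 20 strongest had a median width of 3102 bp. None held an ERRE word and 1 held an AP-1 word, 10 lay in introns, 10 were intergenic, and 5 were on chromosome 20. Of the 32 shared gained sites of at least 5 kb, 13 were on chromosome 20. That chromosome held 169 (2.87%) of all shared gained sites and 1296 of the 39777 LRSKBr3 peaks. Wide or strong peaks of the other classes on that chromosome are not given here. The strongest of all lay in an intron of CCDC40, a gene for cilium assembly (chr17:78014696-78018805), with a score of 1887 in LRSKBr3 cells, at percentile 95.2, and 94.6 on EGF, at percentile 31.8. The next (chr20:44617564-44626564) covered 9001 bp near MMP9, the gene of gelatinase B, and contained the AP-1 word. Its score was 1814 in LRSKBr3 cells and 52.6 on EGF, only just above the lowest score of 50, and a pSKBr3 peak lay 846 bp away. BT-474 cells had a peak there on vehicle (percentile 94.4), EGF (85.1) and HRG (90.9).

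Others among the 20 were strong in both. The site in an intron of SLC13A3, a dicarboxylate transporter gene (chr20:45265539-45270715), was at percentile 90.1 in LRSKBr3 cells, 68.1 on EGF and 86.3 on HRG. The site near PREX1, a Rac exchange factor gene (chr20:47444649-47453625), was at percentile 89.8 in LRSKBr3 cells and 75.7 on EGF, with no HRG peak. The site in an intron of WNT7B, a Wnt ligand gene (chr22:46355722-46359198), was at percentile 87.5 in LRSKBr3 cells and 83.1 on HRG. By contrast the intronic SLC7A5 site, in the gene of the LAT1 amino acid transporter (chr16:87872976-87875474), was at percentile 87.7 in LRSKBr3 cells and 19.0 on HRG, and that in CREB5, a bZIP factor gene, at 86.0 and 11.1. The remaining strongest sites lay nearest to KCNK13, BMP7, TARP, PAWR, TCP10L, PRKDC, SYT17, KDM4B, ENTPD6, PI15, TRIM56, RBKS and ATOX1. Of the 20, 10 had a BT-474 peak, and 6 held an Alu word within 250 bp of the centre. GET4 completed the 5 strongest sites on EGF only, at percentile 82.7 in LRSKBr3 cells and 26.9 on EGF.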

How the data were processed

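The authors mapped the reads on hg19 (GRCh37) with BWA 0.5.9 and used SAMtools 0.1.18 (versions from the submitters' processing notes), and called peaks with MACS against input at a P value cutoff of 1e-05. Each list was deposited with a score per peak, the authors' −10 log10 P value; no read counts were used, depth is unknown, and scores were compared only as percentiles within a list. The lists hold no expression values, so the lines could not be checked against marker genes.

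Overlaps, words and genes were computed with Python 3.11.15, numpy 2.4.6, pysam 0.24.0 and samtools 1.23.1, and plots with matplotlib 3.10.9. An overlap was at least 1 bp. Words were sought on both strands within 100 bp of the peak centre in GRCh37, with flanking windows 2 kb away. Genes were the 19794 protein-coding genes of GENCODE 44 lifted to GRCh37. The steps were tested on simulated data. The sites and gene lists were chosen with earlier results of these data known. Genes named are the nearest to the 20 strongest sites, the 5 strongest of each growth factor class and the 10 strongest with both words, the 10 with most sites, up to 5 per gene list by score, and genes the study names (some of these genes are not reported here). Genes named besides these, those of the printed sequences and of site groups included, were chosen after their values were seen. Alternatives concerned thresholds, overlap, windows and distances.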

Additional observations from a re-analysis of the deposited data

How the results depend on the processing

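With P at most 1e-10 in the LRSKBr3, EGF and HRG lists there were 1719 shared gained sites, near 1444 genes, with an ERRE share of 3.84%, a promoter share of 13.8% and a BT-474 share of 34.1%. With that limit in the LRSKBr3 list alone there were 2787 sites, near 2228 genes, with an AP-1 share of 7.43%, an ERRE share of 4.99%, a promoter share of 16.1% and a BT-474 share of 32.9%. Requiring peaks on both EGF and HRG left 1611 sites, near 1038 genes, with an AP-1 share of 15.5%, an ERRE share of 4.90%, a promoter share of 8.07% and a BT-474 share of 40.8%. Windows of 50 bp to each side gave an AP-1 share of 4.60% and an ERRE share of 3.56%, and windows of 250 bp gave 17.7% and 8.89%. The half-site in place of the ERRE word gave 24.0%. Counting starts within 2.5 kb gave a promoter share of 21.7%, and BT-474 centres within 500 bp gave a BT-474 share of 24.3%. Leaving out peaks with an Alu word, an alternative chosen after seeing the data, gave a promoter share of 16.3%. The construction of each alternative changes the sites or the window counted, and no other cause was tested. The other 37 values were within 1.5 times (numbers) or within the interval (shares) of those reported. Under each of these definitions and windows the AP-1 share was higher, and the ERRE share lower, at shared gained sites than at the comparison class. That class was the remaining LRSKBr3 peaks without a control peak. Under stricter rules for the growth factor peak it was wider than the resistant-only sites, since it took in sites that failed the rule. With peaks required on both EGF and HRG it held 11915 peaks. For ERRE with the limit of 1e-10 in the LRSKBr3 list alone the intervals overlap (4.24–5.86% and 5.25–7.33%).

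No paired analysis was possible because the authors pooled the replicate libraries of a condition into 1 peak list. For the same reason no replicate was left out. Chromosome Y, with few LRSKBr3 peaks, held no shared gained site. The lists give calls and scores but no read counts. The absence of a peak says only that the region did not pass the threshold of that list, and the limit set by depth is unknown.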
